A study of Homo sapiens and Mus musculus and synthetic construct with 31 samples.

Results

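GC-rich but CpG-poor fragments around transcription start sites (TSSs) were examined in a massively parallel reporter assay (MPRA) run in human and mouse embryonic stem cells. Each is an unmutated genomic fragment of 144 bp that takes in 114 bp before and 30 bp after a TSS, with 3 or fewer CpG dinucleotides and a GC content of 50% or more. The rule reads the sequence alone and uses no measured value. It selected 924 of the 6774 TSS-overlapping fragments in the library (13.6%), 398 human and 526 mouse, and 916 of these could be measured, 393 human and 523 mouse. The 398 human fragments came from 310 loci and the 526 mouse fragments from 418, because fragments of neighbouring or opposite TSSs overlap.

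In this study each fragment was placed before a GFP reporter with its own set of barcodes, and the pool was put into cells of both species so that the effect of a sequence difference (*cis*) could be told from that of the cell (*trans*). Human cells (hESCs) were HUES64, a single embryonic stem cell line kept feeder-free in mTeSR1 medium, and each of 3 passages received 3 transfections with LipofectStem. Mouse cells (mESCs) were derived from blastocysts and kept feeder-free in 2i medium, and each of 3 passages received 1 transfection with Lipofectamine 2000. No genotype, strain or treatment other than the reporter pool is labelled, so species, line, medium and reagent cannot be told apart. Every p value of a *cis* or *trans* effect reads the spread between passages of 1 line per species. The q values of active fragments read the spread of random sequences instead. The p values hold no error from the barcodes or from the DNA count, and the 2 sequences of a *cis* pair differ in both.

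The plasmid DNA was sequenced once, to 131913506 barcode reads, and the RNA libraries held 72917827 to 126600144 reads in hESCs (9 libraries) and 101861249 to 138483196 in mESCs (3 libraries). A measured CpG-poor fragment had 7 to 13 barcodes (median 13), a median of 8240 DNA reads (lowest 512), and a median of 9033 RNA reads per hESC passage and 4336 per mESC passage (lowest 119). RNA-seq of untransfected cells showed 6 of 6 embryonic stem cell markers above 1 RPKM in both species. Of 5 fibroblast markers, COL1A1 and COL1A2 passed 1 RPKM in hESCs (highest 14.1) and none did in mESCs (highest 0.264), and their part in the results was not tested.

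CpG islands are stretches of unusually high CpG density that hold the start sites of most widely expressed vertebrate genes. Elsewhere in the genome CpG has been lost over evolution, because methylated cytosine deaminates to thymine and turns CpG into TpG, read as CpA on the other strand. Fragments rich in G and C but poor in CpG share the base content of island promoters without the dinucleotide, so they allow GC content and CpG number to be looked at apart.

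The first sequences shown are a human and a mouse fragment from the gene-free region next to KLF4/Klf4, a pluripotency transcription factor gene, listed as an orthologous pair. Human fragment h.1267 lies at chr9:110512151-110512294 (hg19, minus strand), outside annotated genes and 259417 bp from the KLF4 start. Mouse fragment m.1139 lies at chr4:55743294-55743437 (mm9, minus strand), 197976 bp from the Klf4 start. Capitals mark their longest shared run, 19 bases, which holds the ETS-type letters AGGAAG, and 49.4% of their aligned columns were identical. Below them stand the start sites of CDKN1A and Cdkn1a, which encode the cell cycle inhibitor p21, at chr6:36644186-36644329 (h.565, hg19, plus strand) and chr17:29227810-29227953 (m.451, mm9, plus strand). Capitals there mark ACATGT, letters that carry the CATG core of p53 sites and were picked after the sequences had been seen.
h.1267: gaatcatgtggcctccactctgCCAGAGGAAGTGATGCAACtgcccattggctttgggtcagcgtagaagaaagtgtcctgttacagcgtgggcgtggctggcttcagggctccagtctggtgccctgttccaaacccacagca
m.1139: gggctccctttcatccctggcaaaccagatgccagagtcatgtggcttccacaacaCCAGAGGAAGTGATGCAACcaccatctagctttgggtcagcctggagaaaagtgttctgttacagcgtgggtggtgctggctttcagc
h.565: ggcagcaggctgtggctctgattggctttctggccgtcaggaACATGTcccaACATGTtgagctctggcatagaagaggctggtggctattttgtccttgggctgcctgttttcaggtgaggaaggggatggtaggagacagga
m.451: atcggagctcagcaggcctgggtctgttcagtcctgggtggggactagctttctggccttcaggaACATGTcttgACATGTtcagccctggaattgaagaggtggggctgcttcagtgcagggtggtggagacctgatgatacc

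The next set shows what the rule selects and the pairs on which the comparison of species turns, with each CpG in capitals. Fragment h.2715, at chr16:68268412-68268555 (hg19, plus strand, across an exon of the splicing regulator ESRP2 on the other strand), had the activity nearest to the median of the human fragments in hESCs. Fragments h.1372 (chr17:74128636-74128779, plus strand, 9 CpG) and m.1231 (chr11:116188627-116188770, plus strand, 1 CpG) are listed as an orthologous pair near FOXJ1/Foxj1, a transcription factor gene of ciliated cells. Fragments h.2061 (chr22:27068639-27068782, plus strand, 9 CpG) and m.1873 (chr5:112645308-112645451, minus strand, 1 CpG) pair the start of MIATNB with an exon of mouse Miat. The human start lies inside an exon of MIAT, a long non-coding RNA (lncRNA). Fragments h.1151 (chr1:202074987-202075130, minus strand) and m.1023 (chr1:137080647-137080790, plus strand), with 2 CpG each, pair a site 16998 bp from the GPR37L1 start with one 16503 bp from Gpr37l1. Fragments h.1305 (chr15:101253789-101253932, minus strand) and m.3264 (chr19:9150078-9150221, minus strand) were among the CpG-poor fragments that differed most between the cell types, in opposite directions.
h.2715: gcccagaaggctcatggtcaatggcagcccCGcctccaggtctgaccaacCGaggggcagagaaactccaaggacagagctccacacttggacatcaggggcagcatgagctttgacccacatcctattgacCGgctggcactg
h.1372: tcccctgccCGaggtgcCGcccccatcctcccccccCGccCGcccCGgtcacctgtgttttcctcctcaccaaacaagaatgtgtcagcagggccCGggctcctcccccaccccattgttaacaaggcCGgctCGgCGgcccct
m.1231: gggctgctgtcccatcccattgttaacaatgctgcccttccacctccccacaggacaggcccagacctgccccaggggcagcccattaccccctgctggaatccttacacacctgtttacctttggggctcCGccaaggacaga
h.2061: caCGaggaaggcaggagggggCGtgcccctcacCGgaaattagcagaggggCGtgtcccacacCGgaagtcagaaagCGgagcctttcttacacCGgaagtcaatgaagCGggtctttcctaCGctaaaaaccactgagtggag
m.1873: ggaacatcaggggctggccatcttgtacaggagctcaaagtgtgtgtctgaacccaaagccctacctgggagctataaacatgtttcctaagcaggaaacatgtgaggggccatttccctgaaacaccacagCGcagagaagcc
h.1151: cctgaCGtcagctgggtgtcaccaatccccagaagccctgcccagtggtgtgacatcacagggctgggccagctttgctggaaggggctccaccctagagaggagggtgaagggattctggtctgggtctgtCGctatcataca
m.1023: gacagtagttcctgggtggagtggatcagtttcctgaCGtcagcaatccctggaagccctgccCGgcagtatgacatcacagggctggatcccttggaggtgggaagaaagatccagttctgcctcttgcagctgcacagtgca
h.1305: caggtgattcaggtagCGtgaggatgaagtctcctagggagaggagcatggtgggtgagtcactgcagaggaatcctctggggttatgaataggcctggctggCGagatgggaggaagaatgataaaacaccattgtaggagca
m.3264: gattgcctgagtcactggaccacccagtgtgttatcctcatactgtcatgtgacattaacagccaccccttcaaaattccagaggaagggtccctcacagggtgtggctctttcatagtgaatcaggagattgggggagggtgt

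In both species the CpG-poor, GC-rich fragments drove little more reporter RNA than random sequence. MPRA activity is a fragment's RNA reads over its DNA reads, with all its barcodes added up, divided by the median ratio of 1604 random sequences, so that 1 is the level of random sequence. For the 393 human fragments the hESC median was 1.34 (1.32, 1.36 and 1.34 in the 3 passages, SD 0.0217), with the middle 50% of fragments between 1.02 and 2.09. In mESCs their median was 1.18. The 523 mouse fragments had a median of 1.18 in mESCs (1.23, 1.20 and 1.20 by passage, SD 0.0183) and of 1.30 in hESCs.

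These medians fell between those of CpG-rich and of AT-rich fragments. CpG-rich fragments, with 50% GC or more and 4 or more CpG, had medians of 2.41 for human sequences in hESCs and 1.99 for mouse sequences in mESCs. AT-rich fragments, with the same CpG limit but under 50% GC, had medians of 1.07 and 1.08, close to random sequence. The few fragments with 4 or more CpG but under 50% GC (127 human, 118 mouse) had medians of 1.25 for human sequences in hESCs and 1.22 for mouse sequences in mESCs, the latter above the 1.18 of the CpG-poor, GC-rich ones. The medians of the first 3 compositions kept their order in every passage of both cell types, in both species. Fragments are not replicates and many share a locus, so these differences are given as descriptions with the passages as their error. CpG-rich fragments were also read less completely, since 22.3% of the human and 16.7% of the mouse ones missed the DNA read limit, against 1.26% and 0.57% of the CpG-poor ones.

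**Figure D1:**
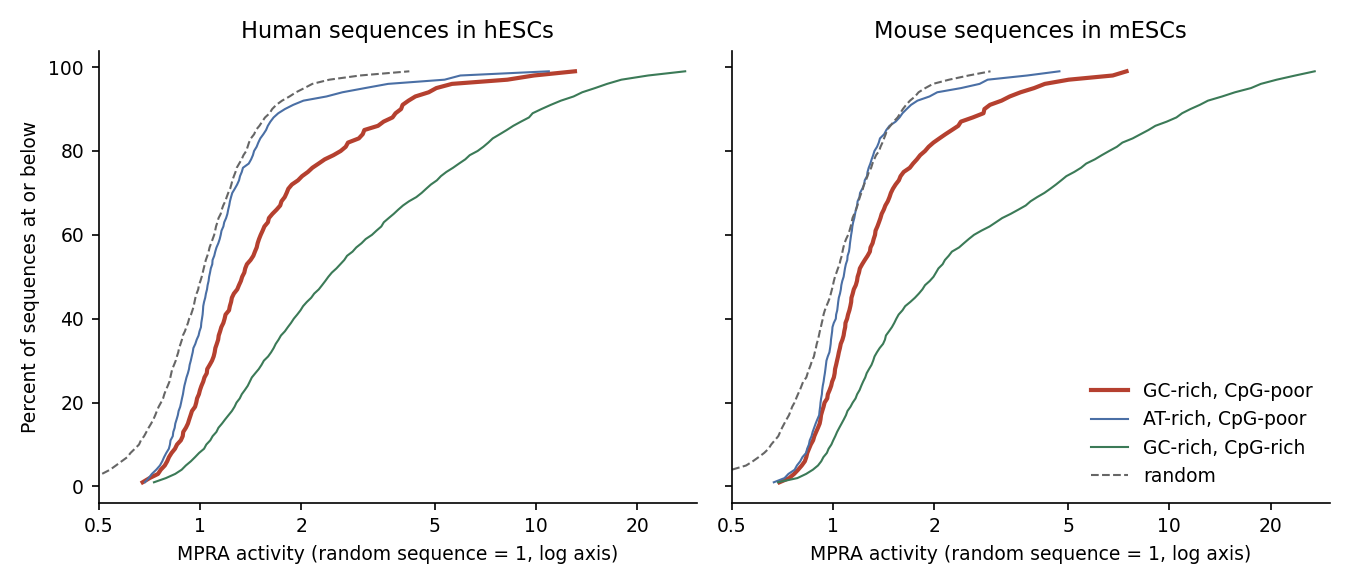
Cumulative share of fragments (y axis, percent) at or below each MPRA activity (x axis, log scale, random sequence = 1) for human fragments in hESCs and mouse fragments in mESCs, 1 line per base composition and 1 for random sequences. The CpG-poor, GC-rich line runs between the AT-rich and the CpG-rich line over most of its length, with medians of 1.34 in human and 1.18 in mouse.

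The base content of the selected fragments follows in large part from the rule. Their median GC content was 55.6% in human and 54.9% in mouse, with a median of 2 CpG, and their ratio of observed to expected CpG had a median of 0.185 in human and 0.189 in mouse. In CpG-rich fragments this ratio was 0.776 and 0.75. TG and CA together occurred a median of 23 times per selected fragment in both species, against 16 and 17 in CpG-rich and 21 in AT-rich fragments. In hESCs the human fragments with fewer than 23 TG and CA were at a median of 1.44 and those with 23 or more at 1.27, and in mouse fragments in mESCs the medians were 1.22 and 1.16.

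Activity was then read against the number of CpG at high and low GC content. Among human fragments with at least 50% GC, medians in hESCs were 1.18 without any CpG (53 fragments), 1.16 with 1, 1.52 with 2 and 1.45 with 3. Just outside the limit, fragments with 4 CpG had a median of 1.40 and those with 5 of 1.56, and with 12 or more the median was 3.29. The step between 1 and 2 CpG was larger than the passage SDs, which were 0.0276 and 0.045, whereas the medians at 3 and 4 CpG differed by about 1 passage SD (0.0481 at both). Mouse fragments in mESCs stayed between 1.16 and 1.20 from 0 to 3 CpG, reached 1.31 at 4, and 3.10 at 12 or more.

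**Figure D2:**
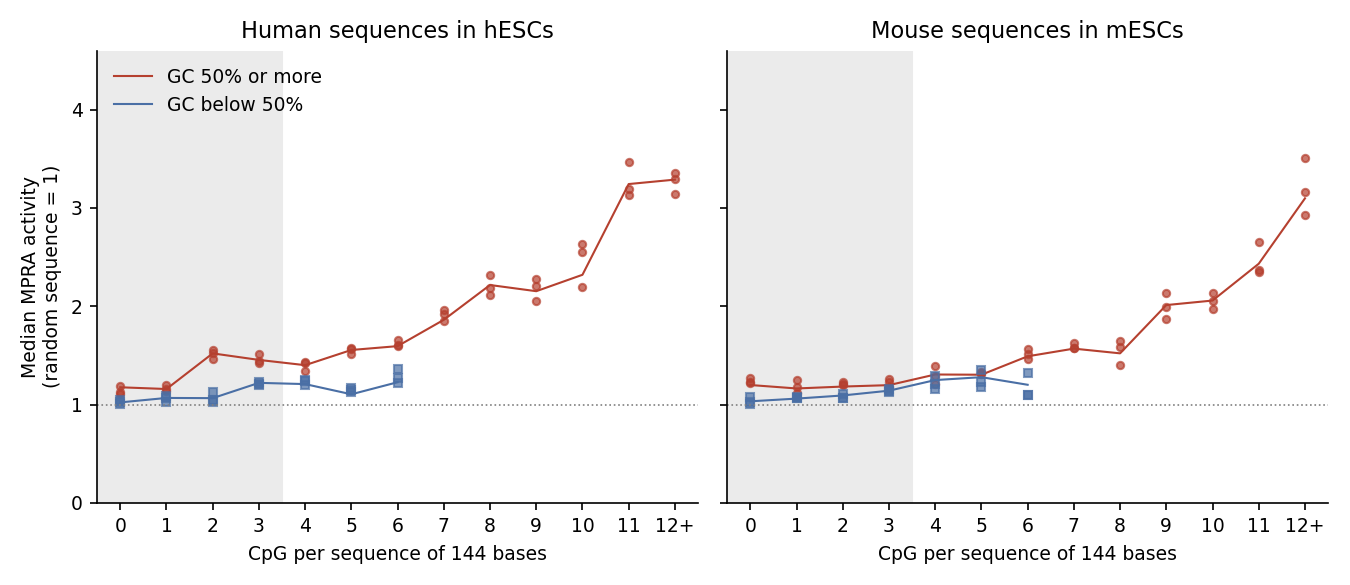
Median MPRA activity (y axis, random sequence = 1) by number of CpG in the 144-bp fragment (x axis) for fragments with at least 50% GC and below 50% GC, human in hESCs and mouse in mESCs, with 1 point per passage and a line through the medians of the passage means. Groups of 20 or more fragments are drawn, and the grey band marks 0 to 3 CpG, where the human GC-rich medians run from 1.16 to 1.52 and the mouse ones from 1.16 to 1.20.

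With few CpG, GC content separated the fragments. At 0 to 3 CpG, human fragments below 50% GC had medians of 1.02 to 1.22 in hESCs, lower than GC-rich ones at each CpG number. Next to the GC limit the levels met, with 1.10 for 60 human fragments of 48 to 50% GC and 1.15 for 73 of 50 to 52%, and 1.17 and 1.16 for the mouse fragments in mESCs. Human CpG-poor fragments rose from a median of 1.18 at 50 to 55% GC to 1.49 at 55 to 60%, were at 1.38 at 60 to 65%, and reached 2.74 in the 15 fragments at 65% or more. Fragments with more than 3 CpG in the same GC ranges had medians of 1.41, 2.03, 2.49 and 2.74. Mouse CpG-poor fragments in mESCs went from 1.16 over 1.20 to 1.47 and to 1.41 in the 9 fragments with the highest GC content, against 1.38, 1.80, 2.05 and 2.25 above 3 CpG.

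A least-squares fit of log2 activity on GC content and CpG number, 1 fit per passage, put numbers on both. Within the human CpG-poor fragments in hESCs, log2 activity rose by 0.35 ± 0.0395 (SD, n = 3 passages) for each 10 points of GC and by 0.13 ± 0.0066 for each CpG. In the mouse CpG-poor fragments in mESCs the slopes were 0.21 ± 0.0072 per 10 points of GC and 0.02 ± 0.018 per CpG, the latter within 1 SD of 0. Over all TSS-overlapping fragments the balance was different. The GC slope was 0.09 ± 0.0261 for human fragments in hESCs and 0.01 ± 0.0057 for mouse fragments in mESCs, while each CpG added 0.08 ± 0.0037 and 0.10 ± 0.0074. With every barcode of at least 1 DNA read kept, the slopes per CpG over all fragments were 0.04 and 0.05.

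About 1 in 3 of the selected fragments was active in hESCs. A fragment was called active where its excess over random sequence, scaled by their median absolute deviation, gave a q value (Benjamini-Hochberg) below 0.05, which needed a level of at least 1.70 in the human and 1.74 in the mouse cells. In hESCs 131 of 393 human fragments (33.3%) and 178 of 523 mouse fragments (34.0%) were active, against 40.7% of all 11861 fragments tested, which include those upstream of the TSS, and 48.9% and 50.7% of the TSS-overlapping fragments alone. In mESCs the counts were 79 (20.1%) and 120 (22.9%), against 31.1% of all fragments tested and 37.5% and 40.9% of the TSS-overlapping ones. Among CpG-rich fragments 65.2% of human ones in hESCs and 55.2% of mouse ones in mESCs were active, and among AT-rich fragments 11.1% and 8.51%. Random sequences themselves lay above the active level in 8.85% of cases in hESCs and 7.36% in mESCs. By design they had fewer barcodes each than TSS fragments. These shares, and the spread that set the active level, are therefore not a like measure for the fragments. Ranking each fragment among the random sequences in place of the score left 27 human fragments active in hESCs and 43 mouse fragments active in mESCs.

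Strong activity was rare. Activity above 5 was reached by 20 human fragments in hESCs (5.09%) and by 16 mouse fragments in mESCs (3.06%), while 27.4% and 25.7% of CpG-rich fragments passed it. In 91 human and 77 mouse fragments all 3 passages of the own cell type lay above 2. Activity below random sequence was seen in 91 human fragments in hESCs (23.2%) and 134 mouse fragments in mESCs (25.6%), against 37.1% and 38.4% of AT-rich fragments. For random sequences the shares were 48.8% and 48.1%, which follows from the scaling to their median. When the barcodes of each fragment were split in 2 sets, the activities of the sets differed by a median of 0.22 to 0.28 on the log2 scale, and 1.78% to 2.87% of fragments differed by 2-fold or more.

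The kind of locus went along with activity. Among human fragments in hESCs, 177 within 1000 bp of an annotated gene start on the same strand had a median of 1.51, 126 in introns 1.26, 72 outside genes 1.17 and 18 in exons 1.10. Each of these except introns stood below the median of all TSS-overlapping fragments at the same kind of place, which was 2.15 at gene starts and 1.18 in introns. By transcript type, medians were 1.77 for 24 mRNA starts, 1.71 for 84 lncRNA starts and 1.31 for 100 enhancer RNA (eRNA) starts. In mouse fragments in mESCs, 34 mRNA starts had a median of 1.42, 134 eRNA starts 1.29, 26 lncRNA starts 1.05 and 107 orthologous positions without CAGE signal (a method that maps capped 5' ends) 1.05. Fragments outside genes had a median of 1.28 and those at gene starts 1.26. No transcript type was listed for 163 human and 209 mouse fragments.

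Of the human fragments 166 lay at a gene with RNA-seq counts, and its level in untransfected hESCs had a median of 0.127 RPKM (reads per kilobase of exon, scaled by library size), against 0.963 for the genes of CpG-rich and 0.128 for those of AT-rich fragments. Of the mouse fragments 113 had such a gene, with a median of 0.203 RPKM in mESCs, against 2.76 for CpG-rich and 1.35 for AT-rich fragments. Across these fragments, which share libraries and partly genes, the Spearman correlation of gene level and reporter activity was 0.18 in human and 0.15 in mouse.

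By the medians, the fragment over the start was more active than the one upstream, except where the upstream one held more than 3 CpG. Of 373 human fragments with a measured upstream fragment, from 228 to 84 bp before the TSS, 198 were higher than it in all 3 hESC passages and 88 lower, with medians of 1.35 and 1.07. Where the upstream fragment held more than 3 CpG (87 cases) the medians were 1.30 and 1.32, and where it held 3 or fewer (286 cases) 1.36 and 1.04. Of 494 mouse fragments 212 were higher than the upstream fragment in all mESC passages and 106 lower, with medians of 1.19 and 1.07. With more than 3 CpG upstream (88 cases) the mouse medians were 1.16 and 1.17, and with 3 or fewer (406 cases) 1.20 and 1.06. The shares higher in all passages were 53.1% (human) and 42.9% (mouse). They were 60.5% and 56.5% among CpG-rich and 37.1% and 27.8% among AT-rich fragments.

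Short sequence motifs were counted in the fragments, and those that hold a CpG are bound to be rarer here because the rule limits CpG. The GC box GGGCGG, bound by SP and KLF factors and holding a CpG, was found on either strand in 9.30% of human and 10.8% of mouse CpG-poor fragments, against 37.6% and 37.1% of all TSS-overlapping fragments. The ETS site CCGGAAG, also with a CpG, was found in 1.26% and 1.71%, against 6.78% and 7.29%. Of motifs without a CpG, AGGAAG, an ETS-type site, was found in 32.7% and 34.0% against 20.2% and 20.9%, and the E-box CAGCTG in 16.8% and 17.1% against 9.68% and 9.78%. The AP-1 site TGANTCA was found in 10.8% of human and 6.27% of mouse fragments, against 5.43% and 4.44%, and CCAAT, bound by NF-Y, in 17.8% and 16.2%, against 19.6% and 19.7%. A match is only a run of letters, and AGGAAG and CCGGAAG differ in the base before GGAAG, so they cannot match there together.

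Some of these motifs went with higher activity. The 35 measured human fragments with GGGCGG had a median of 2.26 in hESCs and those without it 1.29, and the 55 mouse fragments 1.47 and 1.15 in mESCs. With CCAAT the human medians were 1.75 (70 fragments) and 1.25 without, and the mouse ones 1.30 and 1.18. The cyclic AMP response element TGACGTCA occurred in 4 human fragments with a median of 6.23 against 1.33, and in 5 mouse fragments with 1.58 against 1.18. With CAGCTG the human medians were 1.35 and 1.33 and the mouse ones 1.16 and 1.19. Mouse fragments with the E-box CACCTG had a median of 1.12, against 1.20 without it, and 13.5% of them were active in mESCs, against 22.9% of all mouse CpG-poor fragments. The human fragments did not share this. Their medians with and without CACCTG were 1.28 and 1.35 in hESCs and 1.28 and 1.16 in mESCs. In hESCs 34.9% of those with it were active, against 33.3% of all human CpG-poor fragments. ACATGT occurred in 2 human fragments (0.50%, against 1.06% of all), and in 10 mouse fragments (1.90%, against 0.79%). It was picked from the CDKN1A and Cdkn1a starts, which are among these, so their activity is not given as a value of the motif.

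The most active human fragment, h.1267 from the KLF4 region, reached 28.7, 29.3 and 29.4 in the hESC passages and 6.06, 5.91 and 5.10 in mESCs. No other CpG-poor human fragment was as active, and the 2 cell types did not overlap for it. It is an eRNA start with 3 CpG, 1 CCAAT and 1 AGGAAG. The CDKN1A start h.565, with 1 CpG, reached 22.7, 21.5 and 24.7 in hESCs and 7.72, 7.21 and 9.36 in mESCs. The gene itself was at 1.26 ± 0.251 RPKM in untransfected hESCs (SD, n = 3).

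The other leading human fragments were about as active in both cell types. Fragment h.53 (chr11:57405735-57405878, plus strand, 3 CpG), at the start of MIR130AHG, the host transcript of miR-130a, reached 12.1, 13.5 and 14.9 in hESCs and 10.7, 9.01 and 13.3 in mESCs. Fragment h.1151 near GPR37L1 reached 12.4, 13.0 and 13.6 in hESCs and 14.9, 11.5 and 15.9 in mESCs. It holds TGACGTCA and CCAAT, 1 each. Fragment h.1953 (chr19:782615-782758, minus strand, 3 CpG), at the start of the lncRNA gene ENSG00000272473, reached 12.5, 12.6 and 12.5 in hESCs and 12.9, 12.6 and 23.3 in mESCs, so the third mESC passage sets its mESC mean of 16.3. None of these 3 passed the test between the cell types (adjusted p of 0.174, 0.656 and 0.241, edgeR's quasi-likelihood test with Benjamini-Hochberg adjustment).

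Among mouse fragments the Cdkn1a start m.451 led in mESCs, at 14.9, 12.1 and 19.5, and reached 17.7, 18.1 and 20.8 in hESCs. Cdkn1a was at 120 ± 48.5 RPKM in untransfected mESCs, far above the human gene in hESCs, though the levels come from tables of 2 annotations. Fragment m.3310 (chr7:149572750-149572893, minus strand, 945 bp from the annotated start of the lysosomal protease gene Ctsd) had no CpG at all and reached 9.56, 8.17 and 13.0 in mESCs and 5.52, 6.62 and 6.79 in hESCs. Fragment m.3022 (chr5:150444071-150444214, plus strand), 5234 bp from the start of the heat shock gene Hsph1, reached 7.99, 10.1 and 11.2 in mESCs and 15.3, 16.9 and 18.8 in hESCs. Fragment m.35 (chr2:84583883-84584026, minus strand), the listed ortholog of h.53, reached 7.42, 7.73 and 10.5 in mESCs. It holds the same motif matches as h.53, 2 of CCAAT and 1 each of GGGAGGG and AAGATGG, and the difference of the pair in hESCs did not pass the test (log2 -0.19 ± 0.161, adjusted p = 0.323, edgeR's quasi-likelihood test with Benjamini-Hochberg adjustment). Fragment m.2978 (chr1:137005425-137005568, plus strand), 3344 bp from the start of Ptprv, reached 7.20, 7.13 and 11.3 in mESCs.

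**Figure D3:**
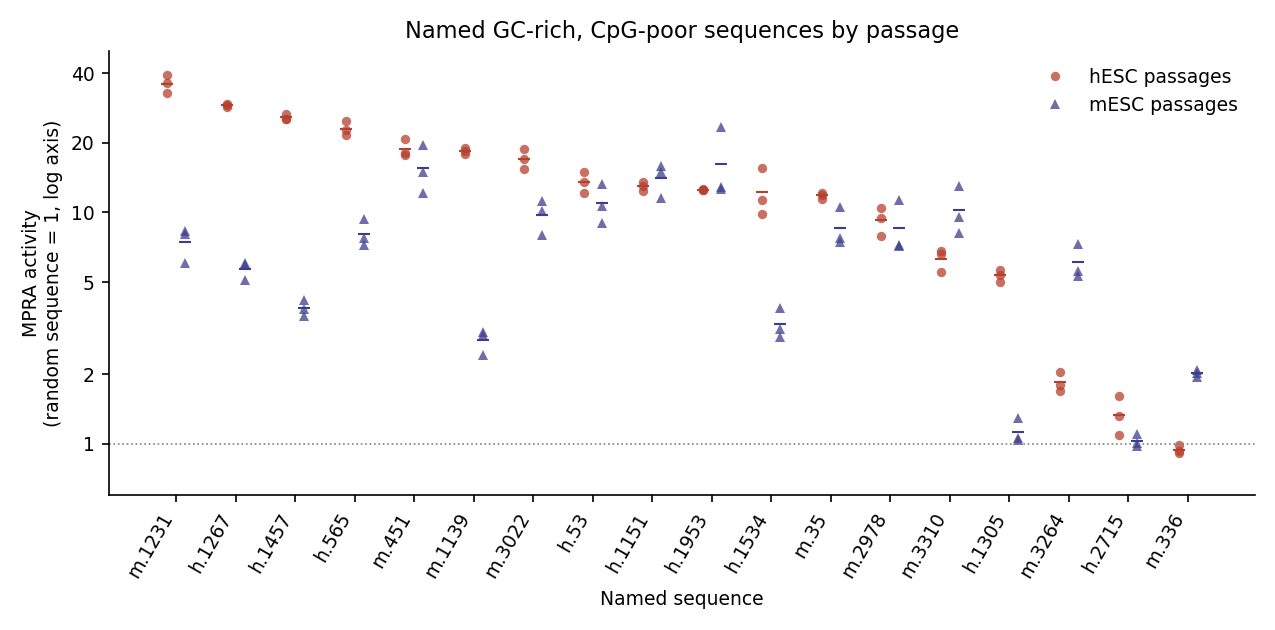
MPRA activity (y axis, log scale, random sequence = 1) of the named CpG-poor, GC-rich fragments (x axis) in each of 3 hESC passages (circles) and 3 mESC passages (triangles), with short lines at the means. The passages of h.1267 lie near 29 in hESCs and between 5.10 and 6.06 in mESCs, whereas those of h.1151 overlap between the cell types.

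Differences between hESCs and mESCs (*trans* effects) were tested for each of 13469 sequences with edgeR's quasi-likelihood test on the RNA counts, with the DNA count as offset and the random sequences setting the scale. Calls needed an adjusted p (Benjamini-Hochberg) below 0.05 and a 2-fold change. Called were 25 of 393 human fragments (6.36%), all higher in hESCs, and 23 of 523 mouse fragments (4.40%), 21 higher in hESCs and 2 in mESCs, against 4.08% of all sequences tested, with 3.6% of all sequences called higher in hESCs. All sequences here include random and upstream ones, and of the TSS-overlapping fragments alone 6.66% (human) and 5.25% (mouse) were called, so the CpG-poor shares were no higher than those of their own kind. CpG-rich fragments were called in 7.92% (human) and 6.14% (mouse) of cases, and AT-rich ones in 2.94% and 2.53%. Random sequences, with fewer barcodes each, were called in 2.00%. The median *trans* effect (log2 of mESC over hESC) was -0.14 in the human and -0.08 in the mouse CpG-poor fragments, and -0.09 over all sequences. With TMM scaling of the RNA counts the median over all sequences was 0.02, a shift of 0.11, and the calls were 21 higher in hESCs and 1 in mESCs for human fragments and 17 and 3 for mouse fragments.

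The called fragments came from 41 loci. In all 48 the passages of the cell types did not overlap, which was also so for 392 of all 916 fragments (42.8%). Of the 48, 21 were listed as eRNA starts (234 of all 916) and 21 lay outside genes (292 of all 916), while 19 lay at annotated gene starts (295 of all 916) and 8 in introns (282 of all 916). Of all 916, 163 human and 209 mouse fragments had no listed transcript type, so the eRNA counts cover listed fragments alone. Their activities had a median of 3.92 (hESCs) and of 1.74 (mESCs), and 24 were below the active level in mESCs. Of the 131 human fragments active in hESCs, 58 were not active in mESCs (14.8% of all 393), whereas 6 were active in mESCs alone (1.53%), and among mouse fragments 69 were active in hESCs alone (13.2%) and 11 in mESCs alone (2.10%). Over all TSS-overlapping fragments these shares were similar, at 13.1% and 1.77% for human and 11.6% and 1.78% for mouse sequences. Activities in the cell types had a Spearman correlation of 0.776 over the human and 0.823 over the mouse fragments, which share the DNA library and partly loci.

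The largest differences came from the KLF4 region, from both strands and both species. Fragment h.1457 (chr9:110512138-110512281, plus strand), which overlaps h.1267 on the other strand, reached 26.6, 25.4 and 25.4 in hESCs and 4.16, 3.81 and 3.57 in mESCs, a *trans* effect of -2.75 ± 0.187 (log2 ± SE; adjusted p = 2.87e-11, edgeR's quasi-likelihood test with Benjamini-Hochberg adjustment). For h.1267 the effect was -2.36 ± 0.214. The mouse fragment m.1139 reached 19.0, 18.5 and 17.9 in hESCs and 2.96, 3.05 and 2.43 in mESCs, an effect of -2.71 ± 0.203, and m.1292 (chr4:55743312-55743455, plus strand), which overlaps it, had an effect of -2.45 ± 0.187. All 4 fragments hold AGGAAG, which was found in 32.7% of all human and 34.0% of all mouse CpG-poor fragments. They overlap or are orthologs, and count as 2 loci.

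Mouse fragment m.1231, near Foxj1 and outside annotated genes, was the most active CpG-poor fragment in hESCs, at 32.8, 36.2 and 39.2, and reached 8.03, 6.05 and 8.33 in mESCs (-2.27 ± 0.207). It has 1 CpG and no match to the GC box, CCAAT, either ETS site or the cyclic AMP response element. Human fragment h.1305, 104066 bp from the start of ASB7, reached 5.36, 5.00 and 5.66 in hESCs and was at the level of random sequence in mESCs, at 1.30, 1.06 and 1.03 (-2.24 ± 0.138). It holds 2 matches of TGANTCA and 1 of AGGAAG. The start of the antisense lncRNA BCAR3-AS1 (h.1534, chr1:94057411-94057554, plus strand) had an effect of -1.89 ± 0.189, and that of CDKN1A of -1.51 ± 0.158, while the Cdkn1a start did not pass the test (-0.28 ± 0.183, adjusted p = 0.310).

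The 2 fragments higher in mESCs were both from mouse. Fragment m.3264, inside an intron of the scaffold protein gene Ahnak and on its opposite strand, reached 1.80, 1.69 and 2.05 in hESCs and 5.34, 5.55 and 7.34 in mESCs (1.72 ± 0.14, adjusted p = 5.94e-10, edgeR's quasi-likelihood test with Benjamini-Hochberg adjustment). It has no CpG and holds 2 matches of TGANTCA, the letters also found in h.1305, which differed in the other direction. It also holds AGGAAG, as h.1305 and the fragments of the KLF4 region do. Fragment m.336 (chr12:21432125-21432268, plus strand), 8741 bp from the start of Ywhaq, was at 0.983, 0.932 and 0.914 in hESCs and at 1.94, 2.09 and 2.02 in mESCs (1.10 ± 0.13). It holds 3 matches of GGGTGGG.

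**Figure D4:**
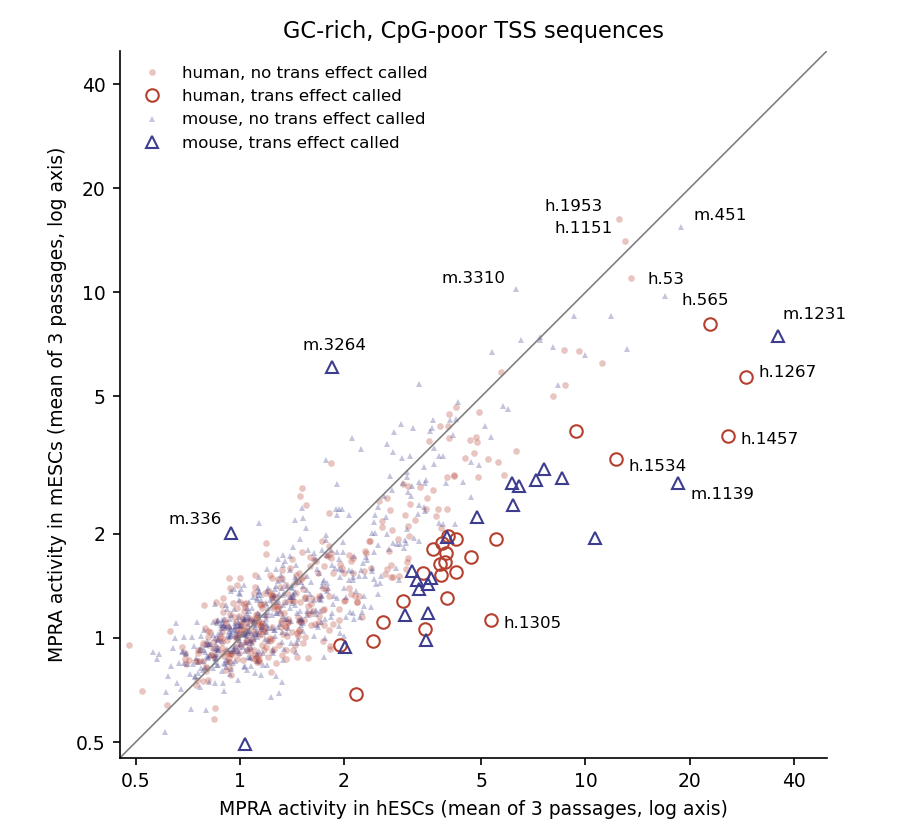
MPRA activity of each CpG-poor, GC-rich fragment in mESCs (y axis) against hESCs (x axis), both means of 3 passages on log axes with random sequence = 1, human fragments as circles and mouse fragments as triangles. Open symbols mark the 48 fragments with a called difference, 46 of them below the diagonal of equal activity, and m.3264 and m.336 above it.

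The orthologous sequences of CpG-poor fragments were often of another base composition, less so for human than for mouse fragments. In 220 listed pairs with a human CpG-poor fragment, the mouse sequence was also CpG-poor and GC-rich in 62.3%, CpG-rich in 21.4% and AT-rich in 15.5%. In 341 pairs with a mouse CpG-poor fragment, the human sequence was CpG-poor and GC-rich in 40.2%, CpG-rich in 39.3% and AT-rich in 17.3%. Pairs of human CpG-rich and mouse CpG-poor fragments numbered 134 and the reverse 47. The list of pairs used here is a part of the full list. In that part, positions without CAGE signal occurred on the mouse side alone, among them 107 of the measured mouse CpG-poor fragments. The shares of the 2 species are therefore not a like comparison.

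Differences between the sequences of a pair in the same cells (*cis* effects) were tested with the same method over 1597 pairs, 424 of them with a CpG-poor fragment on at least 1 side. In hESCs 119 of the 424 pairs (28.1%) were called, against 26.6% of all pairs, with the human sequence higher in 86 and the mouse sequence in 33. In mESCs 80 (18.9%) were called, against 23.0%, with 57 and 23. In 65 pairs the call was made in both. Over all pairs the human sequence was higher in 244 and the mouse sequence in 181 of the calls in hESCs, and in 189 and 179 in mESCs. Because the list used held positions without CAGE signal on the mouse side alone, these counts do not treat the species alike. The difference of the *cis* effect between the cell types passed its own test in 31 of the 424 pairs (7.31%), against 7.89% of all pairs. The human sequences of these pairs had a median of 3 CpG and the mouse sequences of 2. Across the 424 pairs, which share libraries, the Spearman correlation of the *cis* effect with the difference in CpG number (mouse minus human) was 0.33 in hESCs and 0.26 in mESCs, and that with the difference in GC content was 0.32 and 0.29.

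Split by composition, most calls in hESCs with a CpG-rich human and a CpG-poor mouse sequence had the human sequence higher. With CpG-rich sequences on both sides (873 pairs) the human sequence was higher in 126 of 254 calls in hESCs. In the 134 pairs of a human CpG-rich and a mouse CpG-poor sequence, the median *cis* effect (log2 of mouse over human) was -0.56 in hESCs, and 53 pairs were called, the human sequence higher in 43. In the 47 pairs of a human CpG-poor and a mouse CpG-rich sequence the median was 0.11, and 13 were called, the mouse sequence higher in 6. In the 137 pairs with CpG-poor fragments on both sides, 30 were called in hESCs, 22 with the human sequence higher, and 16 in mESCs, 10 of them so. In 22 of these 137 pairs both sequences were active in the cells of their own species, in 38 the human alone, in 7 the mouse alone and in 70 neither. A *trans* effect was called for both sequences of 4 of the 137 pairs, for the human alone in 9 and for the mouse alone in 5.

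**Figure D5:**
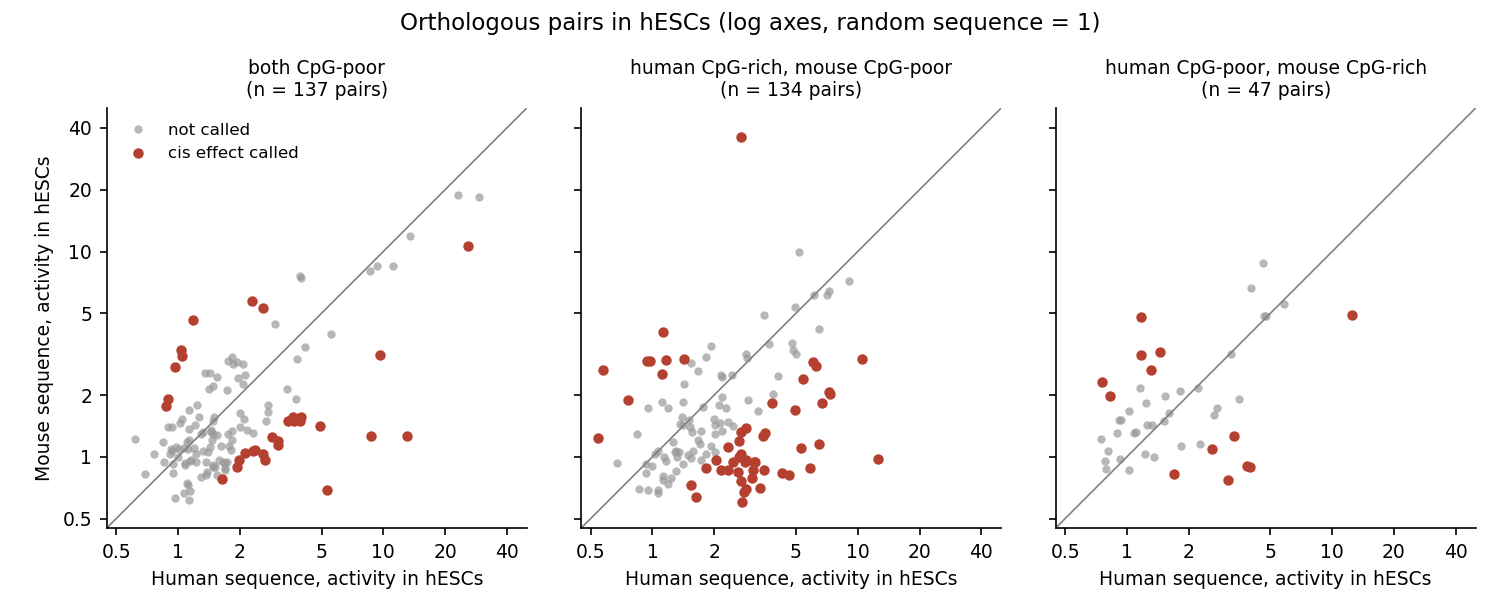
Activity of the mouse sequence (y axis) against the human sequence (x axis) of orthologous pairs, both in hESCs on log axes with random sequence = 1, for 137 pairs with CpG-poor, GC-rich sequences on both sides (left), 134 with a CpG-rich human sequence (middle) and 47 with a CpG-rich mouse sequence (right). Red points are called *cis* effects, of which 22 of 30, 43 of 53 and 7 of 13 lie below the diagonal of equal activity.

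By the mean of both cell types, the largest *cis* effects in favour of the human sequence were those of the MIAT and the GPR37L1 pair. The human start h.2061, with 9 CpG and 2 matches of CCGGAAG, reached 12.7, 12.2 and 12.7 in hESCs, and the mouse exon sequence m.1873, with 1 CpG and none, 0.903, 0.954 and 1.06. This gave *cis* effects of -3.69 ± 0.185 (hESCs) and -3.94 ± 0.188 (mESCs), both past the test (adjusted p = 1.28e-10 and 8.88e-11, edgeR's quasi-likelihood test with Benjamini-Hochberg adjustment). Fragment m.1873 also holds 2 matches of ACATGT, as the CDKN1A and Cdkn1a starts do, without activity above random sequence. In the GPR37L1 pair both sequences have 2 CpG, TGACGTCA and CAGCTG, and 55.5% of their aligned columns were identical, but m.1023 reached 1.26, 1.32 and 1.23 in hESCs against the 12.4 to 13.6 of h.1151 (-3.36 ± 0.171 in hESCs and -3.35 ± 0.171 in mESCs). CCAAT was found in h.1151 alone.

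A further pair joined the start of LINC01063 (h.2173, chr3:196359459-196359602, minus strand), with 20 CpG, to the CpG-poor m.1985 (chr16:32177199-32177342, plus strand). Activities in hESCs were 5.87 ± 0.827 and 0.882 ± 0.0184 (SD, n = 3 passages), an effect of -2.73 ± 0.3, and the human sequence rested on 7 barcodes with 404 DNA reads. In mESCs the effect was -2.39 ± 0.297. The BCAR3-AS1 pair had the largest of these effects in hESCs, -4.26 ± 0.188, and a smaller one in mESCs, -1.92 ± 0.17, and its mouse sequence m.1346 is AT-rich by the 50% limit, at 49.3% GC.

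In the other direction the FOXJ1 pair stood first in hESCs and by the mean of both cell types, while in mESCs its effect was the smallest of the 4 pairs named. Its human sequence h.1372, with 9 CpG and 3 matches of GGGCGG, reached 2.41, 2.61 and 3.11 in hESCs, below the CpG-poor m.1231 in every passage (3.73 ± 0.246 in hESCs and 2.04 ± 0.232 in mESCs, adjusted p = 2.23e-09 and 1.23e-06, edgeR's quasi-likelihood test with Benjamini-Hochberg adjustment). It had 8 barcodes and 1040 DNA reads. The pair shares a run of 14 bases and 45.8% of aligned columns. The run stands near the end of h.1372 and near the start of m.1231. Aligned on it, the 2 fragments share only a part of their length, so the effect compares in part different stretches of the locus. Human CpG-poor fragment h.1473 (chr12:111218406-111218549, plus strand), 37776 bp from the start of the phosphatase gene PPP1CC, was at random level (0.992 ± 0.0426 in hESCs), and its AT-rich mouse partner m.1303, with 3 CpG, at 5.49 ± 0.916, an effect of 2.47 ± 0.154 in hESCs and 2.10 ± 0.152 in mESCs.

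The last pairs named had a CpG-poor mouse sequence above a human one at random level. Fragment m.1282 (chr2:165808066-165808209, plus strand), 9956 bp from the start of the nuclear receptor coactivator gene Ncoa3, reached 3.62 ± 0.219 in hESCs and 4.27 ± 0.907 in mESCs. Its human partner h.1443, at 39.6% GC, stayed at 1.03 ± 0.105 and 0.879 ± 0.0799. Fragment m.1497 (chr2:172848123-172848266, minus strand), which overlaps an exon of the RNA-binding protein gene Rbm38 on the other strand, reached 4.06 ± 0.538 and 4.26 ± 0.553. Its partner at the RBM38-AS1 start (h.1685), with 5 CpG, was at 1.12 ± 0.0812 and 1.02 ± 0.0249. The *cis* effects of both pairs were 1.81 ± 0.155 and 1.86 ± 0.138 in hESCs, and 2.28 ± 0.157 and 2.07 ± 0.139 in mESCs.

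The human and mouse sequences at KLF4 and CDKN1A were all active in hESCs. The log2 *cis* effect of h.1267 and m.1139 was -0.66 ± 0.155 in hESCs, with the human sequence higher but under the 2-fold limit, and -1.02 ± 0.156 in mESCs, which was called (adjusted p = 3.51e-05, edgeR's quasi-likelihood test with Benjamini-Hochberg adjustment). In hESCs the difference of the CDKN1A and Cdkn1a starts did not pass the test (log2 -0.28 ± 0.169, adjusted p = 0.160, edgeR's quasi-likelihood test with Benjamini-Hochberg adjustment). In mESCs the Cdkn1a start was the higher one of its pair by 0.94 ± 0.17.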

How the data were processed

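The authors trimmed reads with cutadapt, kept reads whose barcode and flanking bases matched exactly, and deposited raw counts per barcode for 1 DNA, 9 hESC and 3 mESC libraries, with no molecular identifiers and no normalization, so values carry counting error of PCR reads as well. The authors aligned RNA-seq reads with HISAT2 and deposited raw gene counts from featureCounts 2.0.0, not counted by strand, and RPKM was computed here from these counts and the exon lengths in the files. Human positions are on hg19. Mouse positions are on mm9, checked by reading the fragments from that genome, while the submitters' processing notes list a later build as well. Gene places came from GENCODE annotations of these builds.

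Barcodes under 10 DNA reads, and fragments with under 50% of their barcodes, were left out, and reads of the 3 transfections within each hESC passage were added up. *Trans* and *cis* effects were fitted with edgeR 4.0.16 (glmQLFit and glmQLFTest, R 4.3.3), all sequences or all listed pairs together, and adjusted over all of them (Benjamini-Hochberg). MPRAnalyze, the study's tool, was not used here. The procedures were tested on simulated data.

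The fragments, motifs and lists were chosen with earlier results of these data known. Named were the 5 most active fragments of each species in its own cells, the 5 largest called *trans* effects per direction with passages apart, the 4 largest *cis* effects per direction called in both cell types, the fragment nearest each median (the mouse one is not reported here), and a member at a locus named by the study, each locus once. The search for ACATGT, and the pairs at KLF4 and CDKN1A, were added after values were seen. Pairs and transcript types came from the part of the study's list used here.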

Additional observations from a re-analysis of the deposited data

Results flagged for a closer look

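In 31 of the 424 pairs with a CpG-poor, GC-rich fragment (7.31%, against 7.89% of all pairs) the *cis* effect differed between hESCs and mESCs, by a test of that difference itself within edgeR's quasi-likelihood fit (adjusted p below 0.05 and 2-fold). Given here are the 5 largest, each locus once, and the pair of CDKN1A, as the log2 *cis* effect in mESCs minus that in hESCs.

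The largest difference was that of h.1305|m.1177 near ASB7, at 2.66 ± 0.195 (adjusted p = 4.51e-07, edgeR's quasi-likelihood test with Benjamini-Hochberg adjustment), with activities of 5.34 and 0.687 in hESCs and 1.13 and 0.915 in mESCs, human sequence first. For h.1534|m.1346 at BCAR3-AS1 it was 2.34 ± 0.236. For h.411|m.275, a human sequence with 7 CpG and a mouse sequence with none in the Ctif gene, it was 1.9 ± 0.242. In hESCs the human sequence was higher (2.65 against 1.20). In mESCs the mouse sequence was higher (0.938 against 1.59), by a log2 *cis* effect of 0.76, under the 2-fold limit. Both mESC values lay under the active level. For h.1505|m.1323, whose human sequence has 5 CpG at 48.6% GC, it was 1.55 ± 0.196, with 2.41 and 0.853 in hESCs and 0.896 and 0.931 in mESCs. The CDKN1A pair h.565|m.451 differed by 1.22 ± 0.239 (adjusted p = 0.00228, same test). The FOXJ1 pair h.1372|m.1231 differed in the other direction, by -1.69 ± 0.317, with the mouse sequence higher in both cell types.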

How the results depend on the processing

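Limits come first. Fragments of 1 locus overlap, both cell types are single lines, and 3 passages give each error. Same-numbered hESC and mESC passages did not deviate together (correlations of 0.034, 0.006 and 0.039), so a number is only a name between cell types. With the number as a replicate block the *trans* calls were 26 human and 23 mouse. The main *cis* fit did not match both sequences of a pair within a library. With each library as a block, which matches them, the *cis* calls were 119 in hESCs and 82 in mESCs. TMM scaling moved the median *trans* effect of all sequences by 0.11. DESeq2 called 25 human and 23 mouse fragments. Of 228 alternative values, 161 stayed within 1 SD or, for counts, within 1.5 times. The slopes without 1 passage, which are among the 161, could not fail this. All 639 alternatives of the named effects and activities were rated unchanged. For an effect this means that no call was gained, lost or reversed, while the direction of uncalled effects was not rated. For an activity it could not come out otherwise, because a mean of 3 passages moves by less than 1 SD when 1 is left out. Causes were not tested except where named.

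Rules on the sequence changed the set itself. With 2 or fewer CpG the median activity was 1.25 for human and 1.25 for mouse fragments in hESCs, with 76 and 114 active there, and 45 and 73 in mESCs. With 4 or fewer it was 1.33 in mouse fragments in hESCs and 1.20 in mESCs. With 55% GC or more the medians were 1.48 and 1.36 in hESCs and 1.27 and 1.26 in mESCs (human, mouse), with 89 mouse fragments active in hESCs, and 50 human and 65 mouse fragments in mESCs. With 1 fragment per overlapping group the mouse medians were 1.27 in hESCs and 1.16 in mESCs. Rank among random sequences left 27 and 30 active in hESCs and 30 and 43 in mESCs. Medians over barcodes gave 1.31 and 1.27 in hESCs.

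As log2 ratios of medians, human CpG-poor over CpG-rich fragments in hESCs, -0.85 as reported, became -0.91 with a DNA minimum of 30 reads, -0.69 with 1 read, -0.66 with any barcode and -0.94 with 4 or fewer CpG. Over AT-rich fragments, 0.33 became 0.25 with 2 or fewer CpG and 0.45 with 55% GC. Mouse over CpG-rich in mESCs, -0.75, became -0.65 with 1 read, -0.63 with any barcode, -0.62 by medians over barcodes and -0.66 with 2 or fewer CpG. Mouse over AT-rich, 0.14, became 0.19 by medians over barcodes, 0.16 with 2 or fewer CpG, 0.15 with 4 or fewer, 0.19 with 55% GC and 0.11 with 1 fragment per group. None of these ratios changed sign.

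Slopes over all TSS-overlapping fragments moved with the DNA minimum and with medians over barcodes. Per 10 points of GC they were 0.11 (human) and 0.10 (mouse) in hESCs and 0.0022 and 0.040 in mESCs with a minimum of 30 reads, where the human slope in mESCs was -0.02 as reported. With 1 read they were 0.056 for human in hESCs and -0.053 and -0.011 in mESCs, and by medians over barcodes -0.059 and 0.0023 in mESCs, so the GC slope in mESCs has no settled sign. Per CpG the slopes were 0.10 and 0.12 in hESCs and 0.11 and 0.12 in mESCs with 30 reads, 0.039 and 0.053 and then 0.043 and 0.052 with 1 read, and 0.067 and 0.087 and then 0.062 and 0.079 by medians over barcodes.

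With no fold limit the *trans* calls were 121 human and 149 mouse and the *cis* calls 266 in hESCs and 216 in mESCs, 105 and 114 of the *trans* calls being higher in hESCs. Leaving out each passage in turn gave mouse medians of 1.30 to 1.32 in hESCs, log2 ratios in mESCs of -0.76 to -0.69 over CpG-rich and 0.14 to 0.18 over AT-rich fragments, 23 to 31 human and 24 to 30 mouse *trans* calls, and 111 to 130 and 78 to 89 *cis* calls.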
